A study of Mus musculus with 12 samples.

Results

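Transcripts of 8 proapoptotic genes of the BCL2 family were examined across the immune cells of mouse tumors: the BH3-only genes Bcl2l11, Bid, Bbc3, Bad, Pmaip1 and Bmf, and the effector genes Bax and Bak1. The members were taken by gene symbol, and all 8 of them were found once among the 31053 genes of the matrix. Single-cell RNA was measured in CD45+ cells, that is leukocytes, enriched from MC38 tumors, a mouse colon carcinoma line grown in C57BL/6 mice. There were 12 mice in 4 groups of 3, all implanted with the tumor and taken on day 17: vehicle for 7 days, the EZH2 inhibitor PF-06821497 (EZH2i) at 100 mg/kg for 7 days, vehicle for 16 days, and EZH2i at 100 mg/kg for 16 days. The counts came as 1 matrix whose barcodes carry a library number from 1 to 12, and the labels do not tie these numbers to mice, so EZH2i was not compared with vehicle. The matrix was treated as 1 pooled sample with 12 libraries, no p-value was computed, and values are given as the lowest, median and highest over libraries.

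Apoptosis through mitochondria is decided by contacts among BCL2 family proteins. BH3-only proteins sense stress, loss of growth factors or DNA damage and bind the prosurvival proteins BCL2, MCL1, BCL-XL and A1, and some of them also activate BAX and BAK directly. Activated BAX and BAK form pores in the outer mitochondrial membrane, through which cytochrome c reaches APAF1 and caspase-9. BIM, the product of Bcl2l11, is known for removing lymphocytes at the end of an immune response and for limiting the life span of myeloid cells. Much of the control of these proteins acts after transcription, which UMI counts do not show.

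Of 140639 barcodes, 128912 cells passed the filter on genes and mitochondrial UMIs. Each library held 4256 to 38110 barcodes and 21649947 to 158760328 UMIs, with median UMI counts per cell of 2291 to 15081. Cells were put in a class by UMIs of lineage genes, and 78471 of them (60.9%) passed exactly 1 gate. These were 3382 CD8 T, 705 CD4 T, 205 NK, 256 B, 759 dendritic, 69601 macrophage, 2291 monocyte and 1272 neutrophil cells. Check genes that no gate used were highest in their own class for every list except dendritic cells, where 2 of 5 were, Wdfy4 and Naaa. Here a level is the UMIs of a gene per 1000000 UMIs (CPM), both summed over the cells of a class in 1 library, and libraries with at least 20 cells of the class were used. Krt8 and Krt18, markers of the tumor cells, had medians from 0 to 0.53 CPM in all classes, and Epcam, another, reached 43.8 CPM in dendritic cells with libraries pooled. NK cells reached 20 cells in 2 libraries and B cells in 3, so their values rest on few cells, while the other classes had 9 to 12 libraries. Library 4 stands apart by its few T and NK cells, with 8 CD8 T, 2 CD4 T and 1 NK cell, and it supplied 31.6% of the neutrophils. Libraries 1 to 6 had transcripts of Y-linked genes and libraries 7 to 12 had none, although the study's methods describe female mice. A total of 1877 barcode sequences (1.48%) were found in more than 1 library. Fewer transcripts per cell and a larger share of other transcripts cannot be told apart in CPM.

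Bcl2l11 (ENSMUSG00000027381, GRCm38 chromosome 2, 128126038 to 128162547, plus strand) had its highest class median in neutrophils and its lowest in dendritic cells. Most of these dendritic cells had Xcr1 or Clec9a, and those with Cd209a or Ccr7 had higher values with libraries pooled, given further on. The upstream sequence of Bcl2l11 is shown because FOXO factors, whose genes are among those described further on, are known to act on its promoter. Of the 2 starts listed in the RefSeq table of GRCm38.p6, the 1 with the FOXO-type motif GTAAACA in the 250 bases before it was chosen for that motif. These bases, chr2:128125788-128126037 on the plus strand, read as follows, with the motif in capitals.
Bcl2l11 upstream: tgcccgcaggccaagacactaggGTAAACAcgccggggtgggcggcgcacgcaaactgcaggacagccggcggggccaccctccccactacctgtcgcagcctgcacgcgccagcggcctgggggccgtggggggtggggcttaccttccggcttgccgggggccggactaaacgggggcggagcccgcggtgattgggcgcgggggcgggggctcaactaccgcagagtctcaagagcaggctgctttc
The motif begins 227 bases before the start. GTAAACA, on either strand, is in 3.17% of the 32851 windows of this length in the table. Among the 13 listed starts of 7 members (none is listed for Pmaip1), it is in the window of 1 start of Bcl2l11 and 1 start of Bbc3. The Bcl2l11 window holds 24 CG pairs, against a median of 6 over all windows. These matches describe the sequence, and no binding was measured.

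In neutrophils, Bcl2l11 was at 327.1 to 586.3 CPM over 10 libraries, with a median of 449.9. Macrophages ranged from 82.0 to 199.1 CPM with a median of 120.9, and dendritic cells from 34.6 to 100.8 with a median of 54.9. At the minimum of 20 cells, the lowest neutrophil library thus lay above the highest library of every other class except NK cells. Its exact Poisson 95% interval, counting error only, was 291.6 to 365.8 CPM. This overlapped the interval of the highest CD8 T cell library, 235.8 to 397.7 CPM. With at least 10 cells, a minimum chosen after seeing the data, the lowest neutrophil library had 282.6 CPM. The highest CD8 T and B cell libraries then had 309.0 and 407.3 CPM. Within libraries, neutrophils were above macrophages in 10 of 10 (2.80-fold to 5.73-fold), above monocytes in 10 of 10 (1.49-fold to 6.32-fold) and above CD8 T cells in 9 of 9 (1.90-fold to 3.70-fold). The neutrophil median was 3.72-fold the median of the other 7 classes, a log2 difference of 1.90. Of 8435 genes that could be called in neutrophils, 15.5% were at least 2-fold above the median of the other classes. Without library 4 the neutrophil median was 439.1 CPM. It was 438.7 CPM over libraries 1 to 6 and 454.4 CPM over libraries 7 to 12. Neutrophils had a median of 1736 UMIs per cell against 6637 in macrophages. With every cell thinned to 500 UMIs, 18.3% of neutrophils had a Bcl2l11 UMI (16.2 to 20.6%, an exact 95% interval of counting error alone) against 7.04% of macrophages (6.85 to 7.24%) and 3.56% of dendritic cells (2.36 to 5.13%). The NK share was 19.5% (14.3 to 25.6%), an interval that held that of neutrophils, so these classes were not separated at equal depth. Before thinning, the shares in neutrophils, macrophages and dendritic cells were 45.4%, 51.6% and 25.6%, so the order of neutrophils and macrophages in unthinned shares was the opposite of that in CPM.

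NK cells had 188.8 and 465.1 CPM of Bcl2l11 in the 2 libraries with enough cells, above CD8 T cells of the same library in both. NK cells were above neutrophils without library 7, over libraries 1 to 6, and with at least 50 cells per library, in each of which 1 NK library remained. With libraries of at least 10 cells, a minimum chosen after seeing the data, NK cells had a median of 327.7 CPM over 8 libraries and neutrophils 449.9 over 12. CD8 T cells were at 109.2 to 309.0 CPM with a median of 166.0, and monocytes at 92.7 to 278.7 with a median of 153.9. These neighbours were not separated by the spread, since CD8 T cells were above monocytes in 6 of 11 libraries. Monocytes were above macrophages in 10 of 12. Over libraries 1 to 6 the monocyte median was 219.5 CPM and over libraries 7 to 12 it was 132.5. CD4 T cells had 20.5 to 170.0 CPM with a median of 94.0. They were below CD8 T cells in 9 of 9 libraries, with a median ratio of CD8 to CD4 T cells of 1.57 and a range from 1.01 to 8.21. The lowest CD4 T cell value and the ratio of 8.21 came from library 11, with 3 Bcl2l11 UMIs in 20 CD4 T cells. CD4 T cells were above dendritic cells in 7 of 9 libraries. Of the 28 pairs of classes, 11 had ranges over libraries that did not overlap, against 17 for Bcl2 and 20 for Mcl1. The other members had 1 to 9 such pairs. The usual count over all genes was not obtained, and the ranges of NK and B cells rest on 2 and 3 libraries.

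**Figure D1:**
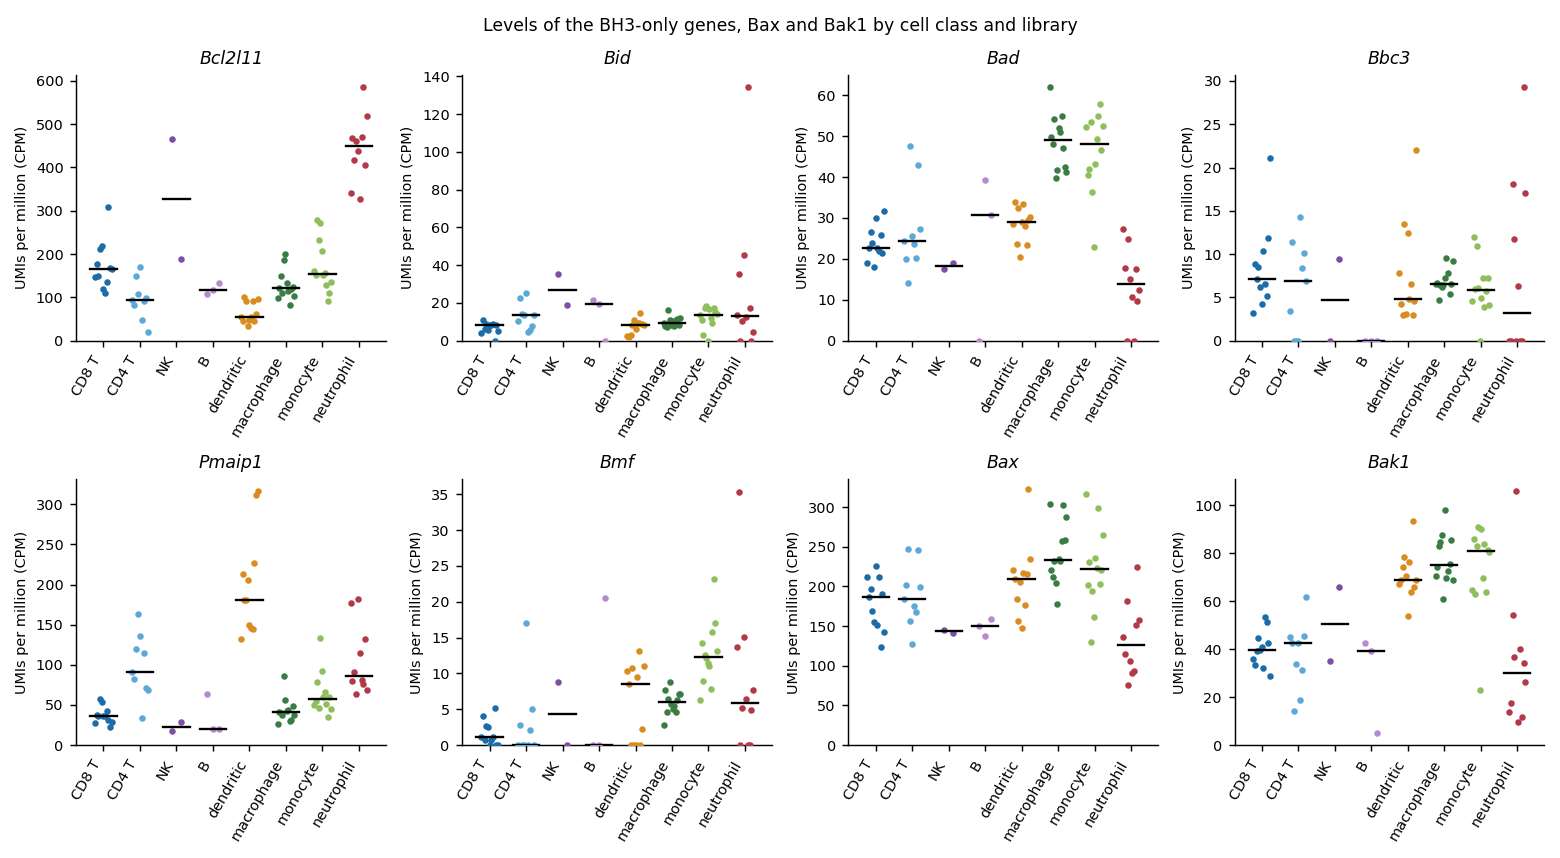
CPM (y axis) of each of the 8 genes in 8 cell classes (x axis), where a point is 1 library with at least 20 cells of the class and the line is the median. Bcl2l11 was highest in neutrophils with a median of 449.9 CPM, Pmaip1 in dendritic cells with 181.1 CPM, and Bad in macrophages with 49.0 CPM.

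The other BH3-only genes that can activate BAX and BAK were low in every class. Bid (ENSMUSG00000004446, chromosome 6, 120891930 to 120916853), whose product is cut by caspase-8 downstream of death receptors, had class medians of 8.26 to 27.0 CPM. Its highest median was that of NK cells, from 18.9 and 35.1 CPM in 2 libraries and 15 UMIs in all. This order was lost with libraries of at least 10 cells, where the median was 13.9 CPM in monocytes and 13.1 in NK cells, and in the CPM of thinned cells. The share with a UMI at 1000 UMIs was highest in NK cells, at 2.12%, with a wide interval from 0.58 to 5.33%. At 500 UMIs it was 0.49% in NK cells, below the 0.79% in neutrophils. In neutrophils, 1 library with 134.2 CPM stood far above the median of 13.2. Bbc3 (ENSMUSG00000002083, chromosome 7, 16308393 to 16318205), which encodes the p53 target PUMA, had class medians of 0 to 7.16 CPM. CD8 T cells at 7.16 CPM were above CD4 T cells in 5 of 9 libraries, so the order of the upper classes did not exceed the spread. All 3 B cell libraries had no Bbc3 UMI, and the pooled 527839 UMIs of B cells held 1 (1.89 CPM, exact Poisson 95% interval 0.05 to 10.6). The 3 prime end of Bid overlaps Bcl2l13 on the other strand, and whether the counting used strand is not given in the sources used here.

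Pmaip1 (ENSMUSG00000024521), which encodes NOXA, a BH3-only protein known for binding MCL1, was highest in dendritic cells. There it was at 132.0 to 316.8 CPM over 11 libraries, with a median of 181.1. Macrophages had 26.7 to 86.3 CPM with a median of 40.7, and CD8 T cells 22.6 to 57.2 with a median of 36.4, so neither range reached that of dendritic cells. Dendritic cells were above macrophages in 11 of 11 libraries, by 2.38-fold to 8.51-fold, and above CD4 T cells in 9 of 9, by 1.10-fold to 4.55-fold. Against neutrophils the order held in 7 of 9 libraries. The median was 4.45-fold that of the other classes, and 12.1% of 9402 genes were at least 2-fold higher in dendritic cells. In thinned cells, 9.35% of dendritic cells had a Pmaip1 UMI (7.38 to 11.7%), against 2.58% of macrophages (2.46 to 2.70%).

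CD4 T cells had the next highest median of Pmaip1, at 90.5 CPM with a range from 33.2 to 162.8. They were above CD8 T cells in 8 of 9 libraries, with a median ratio of 2.84, whereas for Bcl2l11 CD8 T cells were the higher of the T cell classes in all 9. With cells thinned to 500 UMIs the T cell shares had overlapping intervals, with 1.70% of CD4 T cells (0.88 to 2.95%) and 2.07% of CD8 T cells (1.62 to 2.61%). Thinned to 1000 UMIs, the shares were 6.72% of CD4 T cells (4.94 to 8.88%) and 3.65% of CD8 T cells (3.02 to 4.36%), in the order of the CPM. Neutrophils had 64.1 to 181.7 CPM with a median of 85.6, and were above CD4 T cells in 5 of the 7 libraries with both. Monocytes were above macrophages in 12 of 12 libraries, by 1.12-fold to 1.95-fold. CD4 T cells (14.9% of 8865 genes called higher) and neutrophils also had Pmaip1 at least 2-fold above the median of their other classes, but both calls were lost with libraries of at least 10 cells, where the medians were 86.5 and 85.5 CPM against 50.4. For CD4 T cells the call was also lost over libraries 7 to 12, with 69.7 against 40.1 CPM. Thinned to 1000 UMIs, 5.59% of neutrophils (4.20 to 7.27%) and 4.90% of macrophages (4.74 to 5.07%) had a Pmaip1 UMI, with overlapping intervals, whereas thinned to 500 UMIs the shares were 4.25% (3.21 to 5.50%) and 2.58% (2.46 to 2.70%).

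Bad (ENSMUSG00000024959, chromosome 19, 6941861 to 6951899), whose product is held inactive by growth factor signals, was highest in macrophages and monocytes. Macrophages had 39.7 to 61.9 CPM with a median of 49.0 and monocytes 22.98 to 57.9 with a median of 47.96. The 2 classes were not separated, with macrophages the higher in 8 of 12 libraries. CD8 T cells were at 18.0 to 31.6 CPM with a median of 22.6, below macrophages in 11 of 11 libraries. Neutrophils were lowest at 0 to 27.2 CPM with a median of 13.8, below macrophages in 10 of 10. The macrophage median was 2.01-fold that of the other classes, where 23.2% of 10770 genes were at least 2-fold higher. This value lies at the limit of a call, which was lost without library 1, 2, 4, 7 or 8 (lowest log2 difference 0.95), over libraries 7 to 12 (0.94), and when thinned to 1000 UMIs (0.85). In neutrophils Bad was at least 2-fold lower, as were 49.2% of the genes, but over libraries 1 to 6 it was at 21.3 CPM against 24.4 in the other classes and neither the call nor the lowest rank held.

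Bmf (ENSMUSG00000040093, chromosome 2, 118528757 to 118549687), whose protein is kept at the actin cytoskeleton until cells detach or are stressed, was low everywhere and highest in monocytes. Monocytes had 6.31 to 23.2 CPM with a median of 12.3, and were above macrophages, at 2.73 to 8.75 CPM, in 12 of 12 libraries by 1.38-fold to 3.67-fold. CD8 T cells had 0 to 5.15 CPM with a median of 1.06, a range entirely below that of monocytes. The counts were small, with 22 Bmf UMIs in CD8 T cells and 175 in monocytes. The highest CD8 T cell value came from 1 UMI, and monocytes had 2 UMIs in library 5 and 1 in library 6. In monocytes, 14.5% of 10069 genes were at least 2-fold higher, and in CD8 T cells 9.12% of 10208 genes were at least 2-fold lower, Bmf among them in both. The monocyte call was lost with libraries pooled, where the log2 difference was 0.87, and B cells had the highest level with gates doubled, with at least 50 cells and over libraries 7 to 12. CD4 T cells had 8 Bmf UMIs in all and a median of 0, and too few were expected for a call.

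Of the effector genes, Bax had similar medians in most classes. Bax (ENSMUSG00000003873, chromosome 7, 45461697 to 45466898) was at 177.9 to 303.5 CPM in macrophages with a median of 233.3, at 123.6 to 226.3 in CD8 T cells with a median of 187.1, and at 75.9 to 224.4 in neutrophils with a median of 125.6. Macrophages were above CD8 T cells in 11 of 11 libraries by 1.03-fold to 2.45-fold, and above neutrophils in 10 of 10. The macrophage median was 1.26-fold that of the other classes. CD8 and CD4 T cells were not separated, with CD8 T cells the higher in 4 of 9 libraries. Bak1 (ENSMUSG00000057789, chromosome 17, 27019810 to 27029009) was at 61.0 to 97.9 CPM in macrophages with a median of 75.0 and at 22.98 to 90.8 in monocytes with a median of 81.0. Dendritic cells had a median of 68.9 CPM and a range above that of CD8 T cells, which had 29.0 to 53.5 CPM. Neutrophils had the lowest median of Bak1, 30.2 CPM, with a range from 9.56 to 106.0 that overlapped every other class.

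Neutrophils thus had the lowest medians of Bad, Bax and Bak1 at the minimum of 20 cells over all libraries. With at least 10 cells B cells were lower for Bax, with 112.7 against 125.6 CPM, and for Bak1, with 13.1 against 30.2. Across all genes that could be called in neutrophils the median log2 difference to the other classes was -0.92, so lower values were common in this class. The log2 differences were -0.57 for Bax and -0.74 for Bak1, and neither gene passed 2-fold. Bak1 in monocytes, at a log2 difference of 0.93, passed 2-fold in some settings, also without library 1, 6, 7, 9 or 11 (highest 1.03). No member was at least 2-fold higher in CD8 T cells (0 of 8), where 16.8% of genes were, although Bbc3 passed 2-fold there when cells were thinned to 1000 UMIs, with a log2 difference of 1.21 against 0.58. Of the 7 members that could be called in CD4 T cells (all but Bmf), none was at least 2-fold lower, where 4.61% of genes were. No member was at least 2-fold lower in macrophages, where 6.79% of genes were, or in monocytes, where 14% were. Bax overlaps Gm45808 on the same strand outside its 3 prime end, and the 3 prime end of Bak1 overlaps Ggnbp1 on the other strand.

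Transcripts free in the suspension can enter any droplet. Apoe, a macrophage gene among the check genes, was found in dendritic cells at 0.77 to 4.80% of its level in macrophages of the same library, in CD8 T cells at 1.52 to 17.8%, in CD4 T cells at 1.61 to 22.6%, and in neutrophils at 3.36 to 13.8%. Bcl2l11 in CD8 T cells was at 89.6 to 256.4% of the macrophage level and in dendritic cells at 18.6 to 92.8%. In both classes the lowest Bcl2l11 value was above the highest Apoe value. For CD4 T cells the lowest Bcl2l11 value, 16.7% of the macrophage level, was below the highest Apoe value. In monocytes Apoe was at 13.4 to 51.2% and Bcl2l11 at 77.0 to 212.5%. Apoe is 1 gene, and the part of free transcripts in the levels of the members was not tested.

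Other genes of the pathway gave a setting for these values. The list of 23 prosurvival, effector, apoptosome and regulator genes had 20 with at least 5 CPM in some class, and Bok, Bik and Hrk were below. In neutrophils 5 of the 19 genes that could be called were at least 2-fold higher, beside 15.5% of all genes called: Mcl1, Bcl2l1, Bnip3, Bnip3l and Foxo3. Mcl1, the prosurvival partner of NOXA and BIM, had a median of 3334 CPM in neutrophils (2709 to 4852), 8.47-fold the median of the other classes, and was above monocytes in 10 of 10 libraries. Bcl2l1, which encodes BCL-XL, had 172.8 CPM there, 6.27-fold. Another 7 genes were at least 2-fold lower, beside 49.2% of all genes, among them Bcl2, Bcl2l14, Cycs, Diablo, Trp53 and Foxo1. Trp53, which encodes p53, had a median of 11.7 CPM in neutrophils and 44.2 to 93.3 CPM in the other classes. The median log2 difference of the list in neutrophils was -0.60, beside -0.92 for all genes called.

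Bcl2, which keeps resting lymphocytes alive, was highest in NK and CD8 T cells. It was at 163.1 to 732.6 CPM in CD8 T cells with a median of 422.3, at 15.6 to 30.7 in macrophages with a median of 18.9, and at 0 to 26.5 in neutrophils with a median of 0.53. CD8 T cells were above CD4 T cells in 9 of 9 libraries, by 1.49-fold to 4.62-fold. The library sets, 1 to 6 with Y-linked transcripts and 7 to 12 without, did not overlap for Bcl2 in T cells but lay close. CD8 T cells had 163.1 to 405.7 CPM in libraries 1 to 6 and 422.3 to 732.6 in libraries 7 to 12. CD4 T cells had 35.3 to 144.9 and 179.8 to 376.7. In both classes the nearest libraries, 2 and 9, had overlapping exact Poisson intervals, which cover counting error only. These were 373.6 to 439.7 and 381.3 to 466.6 CPM in CD8 T cells. In CD4 T cells they were 107.9 to 190.6 and 140.4 to 226.7 CPM. The share of all genes whose library sets do not overlap in T cells was not counted. In CD8 T cells 4 of 20 list genes were at least 2-fold higher, among them Bcl2, Bcl2l14 and Foxo1 (16.8% of all genes called), and 2 were lower, Bcl2a1a and Bnip3 (9.12%). In dendritic cells Bcl2a1a, Bcl2a1d, Bcl2l14 and Casp9 were higher, beside 12.1% of all genes, and Bcl2 and Foxo1 lower (9.6% of genes called lower, Bcl2l11 among them). In CD4 T cells 5 of 20 were higher (Bcl2, Bcl2l1, Bcl2l2, Bcl2l14 and Foxo1) and Bcl2a1a was lower, beside 14.9% and 4.61% of all genes called. In macrophages 4 were higher (Bcl2l1, Bnip3, Casp9 and Foxo3) and 4 lower (among them Bcl2, Bcl2l14 and Foxo1), beside 23.2% and 6.79% of all genes. In monocytes 4 were higher (Mcl1, Bnip3, Casp9 and Foxo3) and 3 lower (Bcl2, Bcl2l14 and Foxo1), beside 14.5% and 14%. Bcl2l14 had a median of 97.3 CPM in dendritic cells and 0.53 to 19.6 CPM in the other classes. Bcl2a1a, Bcl2a1b and Bcl2a1d are near-identical copies, so their counts may be divided among them. Of the FOXO genes, Foxo3 was highest in neutrophils at 44.3 CPM, where Bcl2l11 was highest too. In NK cells, the class with the next highest median of Bcl2l11, Foxo3 had a median of 0 over 2 libraries. Foxo3 had 7.68 CPM in CD8 T cells, 24.3 in macrophages and 23.9 in monocytes. Foxo1 was highest in B cells at 117.5 CPM and had 54.1 CPM in CD8 T cells and 6.30 CPM in neutrophils. A link between the FOXO genes and Bcl2l11 was not tested.

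**Figure D2:**
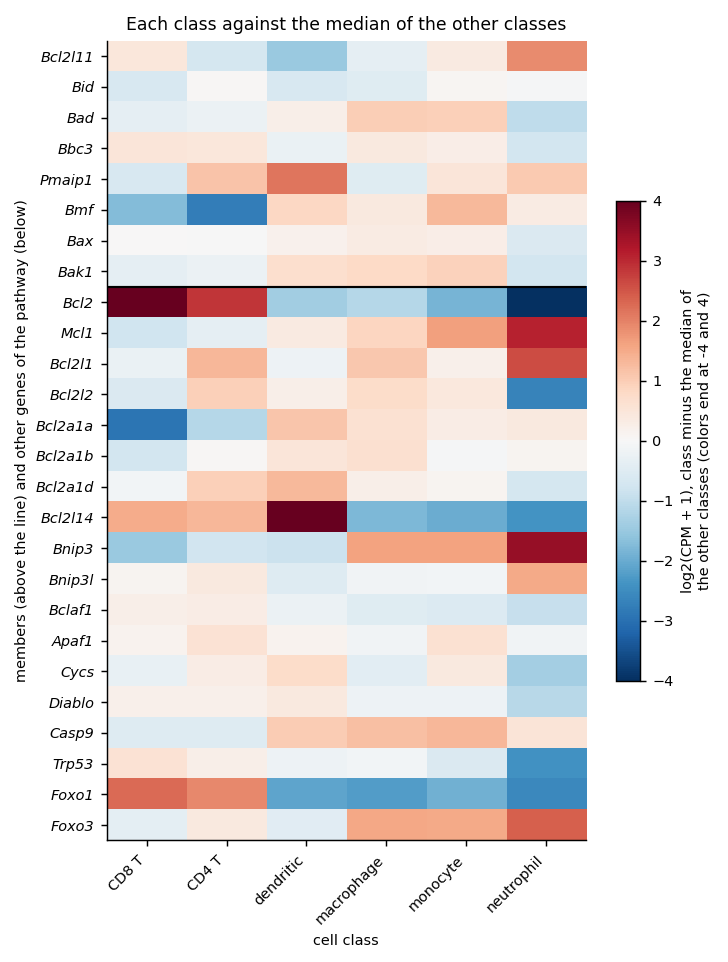
Log2 difference (color, on log2(CPM + 1)) between a class (x axis) and the median of the other classes for the 8 members above the line and other genes of the pathway list below it, in the 6 classes with at least 9 libraries. In the neutrophil column Bcl2l11 and Mcl1 are high and Bcl2 is low, and in the dendritic column Pmaip1 and Bcl2l14 are high and Bcl2l11 is low.

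As BIM acts by binding prosurvival proteins, Bcl2l11 UMIs were set against Bcl2 and Mcl1 UMIs of the same cells. The ratio is compared between classes or library sets only, since 3 prime UMI counts do not give the amounts of different genes. Per Bcl2 UMI, Bcl2l11 was at 0.20 to 0.92 in CD8 T cells with a median of 0.44, and at 4.27 to 7.93 in macrophages with a median of 6.17. Monocytes had a median of 11.8 with a range from 5.23 to 29.6, leaving out 1 library with no Bcl2 UMI. In CD8 T cells the ratio was 0.44 to 0.92 in libraries 1 to 6 and 0.20 to 0.56 in libraries 7 to 12, ranges that overlapped. The CD8 T cell range lay wholly below those of macrophages and monocytes. In neutrophils, 5 of 10 libraries had no Bcl2 UMI, and the pooled counts were 1356 UMIs of Bcl2l11 and 20 of Bcl2, a ratio of 67.8. Library 12 gave 10 of these Bcl2 UMIs, and without it, a setting added after seeing the data, the ratio was 102.1. CD4 T cells had 0.57 to 4.20 in libraries 1 to 6 and 0.05 to 0.55 in libraries 7 to 12. These ranges did not overlap but lay close. Their nearest libraries had 29 Bcl2l11 and 51 Bcl2 UMIs (library 2) and 39 and 71 (library 9). The outer ends rest on few UMIs, with 5 of Bcl2 in library 3 and 3 of Bcl2l11 in library 11. How often other genes part between these library sets was not counted.

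Per Mcl1 UMI the order was another. CD8 T cells had 0.27 to 1.09 with a median of 0.55, above macrophages at 0.11 to 0.26 with a median of 0.18. Neutrophils had 0.07 to 0.19 with a median of 0.13, which did not differ beyond the spread from dendritic cells with a median of 0.13, or from monocytes with 0.12. Neutrophils thus had the highest median level of Bcl2l11 and the highest pooled ratio to Bcl2, while their ratio to Mcl1 overlapped that of macrophages. NK cells had ratios to Mcl1 of 1.05 and 2.30 in 2 libraries.

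**Figure D3:**
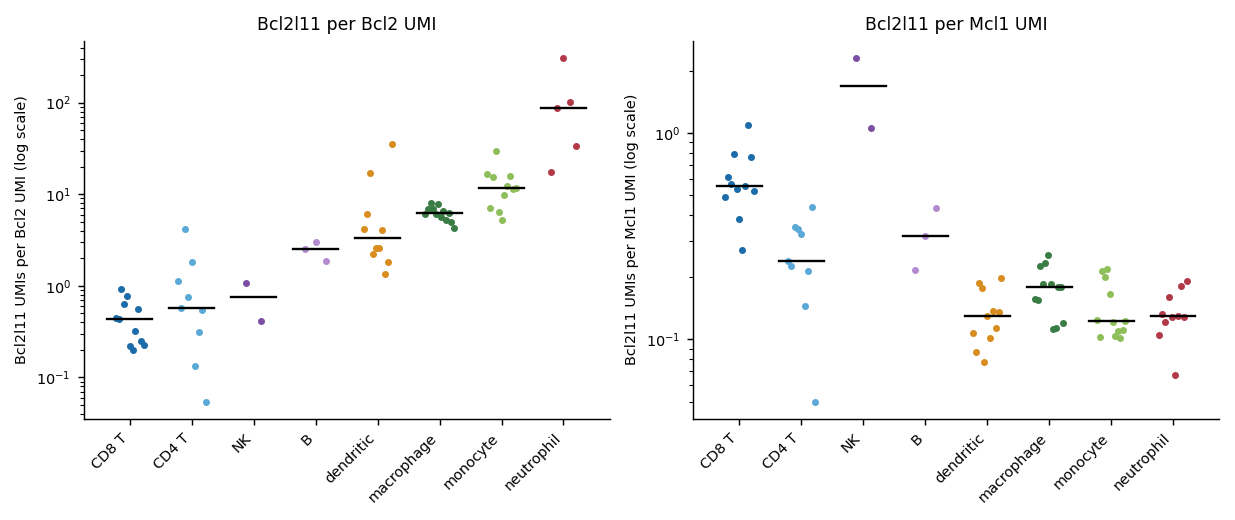
Bcl2l11 UMIs per Bcl2 UMI (left) and per Mcl1 UMI (right), both on log axes, by cell class (x axis), where a point is 1 library and the line is the median of the points drawn. Libraries without a Bcl2 UMI (5 of neutrophils, 1 of dendritic cells and 1 of monocytes) are not drawn, and the medians were 0.44 in CD8 T cells and 6.17 in macrophages per Bcl2 UMI.

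Of the CD8 T cells of all libraries, 616 were cycling (at least 2 UMIs of Mki67 and Top2a together) and 2766 were not. Levels of the cycling cells and the others were compared within libraries. Over 9 libraries with at least 20 cells of both, Bcl2l11 had a median of 119.1 CPM in cycling cells and 161.9 CPM in the others, and was lower in cycling cells in 9 of 9. Bax had 212.5 against 175.5 CPM and was higher in cycling cells in 9 of 9. Bak1 had 46.2 against 35.4 CPM, higher in 8 of 9. Bcl2 and Mcl1 were lower in cycling cells in 9 of 9 libraries each, with 229.8 against 482.6 CPM for Bcl2. Pmaip1 was higher in 4 of 9 and Bbc3 in 5 of 9, with no common direction. Cycling cells were deeper, with a median of 5312 UMIs per cell against 2793, and the part of depth in these differences was not tested. The share of all genes with the same direction in every library was not counted, so no background is given.

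Macrophages gave another pattern over 12 libraries, with 12892 cycling cells among 69601. Bcl2l11 was at 119.6 CPM in cycling and 119.4 in other macrophages and was higher in 4 of 12 libraries, and Bax was higher in 6 of 12. Bak1 was higher in cycling macrophages in 11 of 12 libraries, with 84.6 against 73.4 CPM, as in CD8 T cells. Bid was higher in 12 of 12, with 10.8 against 8.76 CPM. Bmf was lower in 12 of 12, with 4.04 against 6.51 CPM. Whether the change in Bcl2l11 with cycling differed between CD8 T cells and macrophages was not tested. For macrophages too, the share of all genes with the same direction in every library was not counted.

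**Figure D4:**
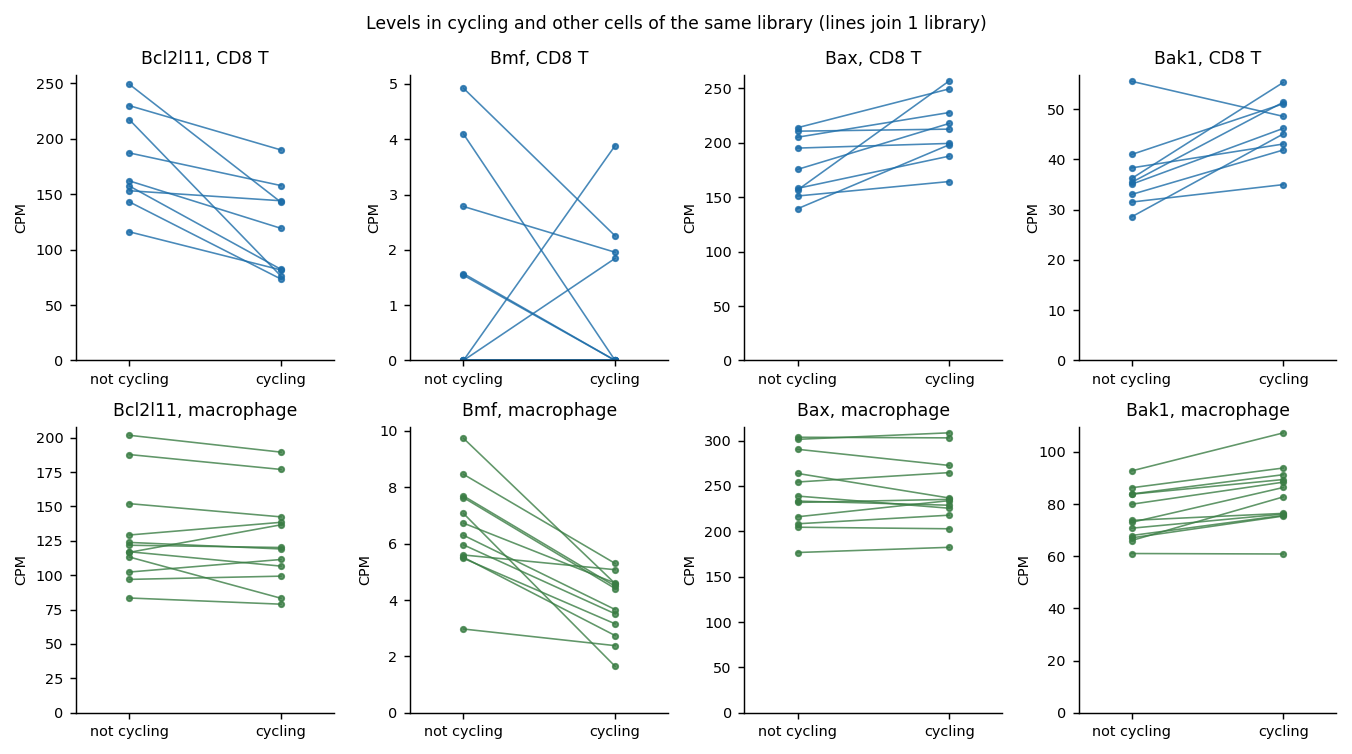
CPM (y axis) of 4 genes in cycling and other cells (x axis) of CD8 T cells (top, 9 libraries) and macrophages (bottom, 12 libraries), where a line joins the values of 1 library. In CD8 T cells Bcl2l11 was lower and Bax higher in the cycling cells of every library drawn, and in macrophages Bmf was lower in all 12.

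CD8 T cells outside the cycle were further divided by Tcf7, the gene of the memory-type factor TCF-1, and Havcr2, which encodes TIM-3, a receptor of exhausted cells. The 284 cells with Tcf7 and no Havcr2 had 219.4 CPM of Bcl2l11 over all libraries (exact Poisson 95% interval 192.8 to 248.7, counting error only) and the 489 cells with Havcr2 had 146.0 (131.6 to 161.5). In single libraries the order was less firm. Only 3 libraries held 20 or more cells of each state, and there the values were 241.8 against 119.9, 164.8 against 87.1 and, reversed, 188.1 against 226.2 CPM. Bax went the other way, with 113.7 CPM (94.8 to 135.3) in Tcf7 cells and 191.9 (175.4 to 209.6) in Havcr2 cells, and was lower in Tcf7 cells in 3 of 3 libraries. Bcl2 was higher in Tcf7 cells in 3 of 3, with pooled values of 669.9 and 285.4 CPM. These states were gated on UMIs of 1 or 2 genes, so they are ranges rather than types.

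Dendritic cells were divided by Xcr1 and Clec9a, genes of type 1 conventional dendritic cells, by Cd209a, found in monocyte-related and type 2 dendritic cells, and by Ccr7, which guides mature dendritic cells to lymph nodes. Of the 759 cells, 39 were in more than 1 of these states and 54 in none. The 502 cells with Xcr1 or Clec9a had 33.2 CPM of Bcl2l11 (27.7 to 39.5), the 102 cells with Cd209a had 163.2 (130.4 to 201.8) and the 140 cells with Ccr7 had 110.1 (93.2 to 129.1), with all libraries pooled. Over 7 libraries the Xcr1 or Clec9a cells ranged from 22.8 to 60.9 CPM. Ccr7 cells reached 20 cells in 2 other libraries, at 87.7 and 106.1 CPM, so their difference from the Xcr1 or Clec9a cells cannot be told apart from a difference between libraries. No library held 20 cells with Cd209a, so their value could not be set against the other states within a library. Pmaip1 was high in all of these states, at 203.1, 249.6 and 211.4 CPM. Bmf was at 17.5 CPM (11.2 to 26.0) in Ccr7 cells and 3.40 (1.81 to 5.82) in Xcr1 or Clec9a cells, from 24 and 13 UMIs, and here too the states come from unlike libraries, since dendritic cells had no Bmf UMI in libraries 3, 5, 6 and 9 and 14 UMIs in library 8.

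**Figure D5:**
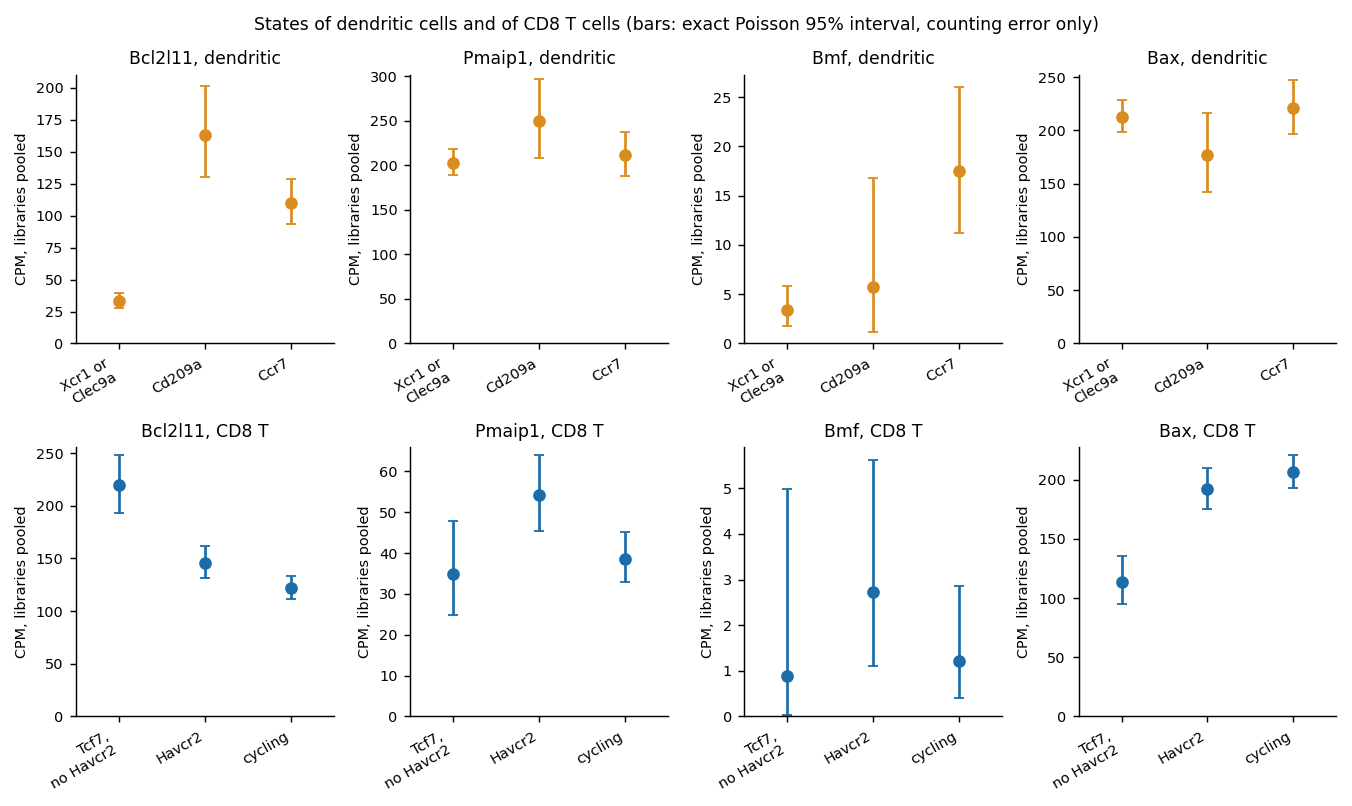
CPM with all libraries pooled (y axis) of Bcl2l11, Pmaip1, Bmf and Bax in 3 states (x axis) of dendritic cells (top) and CD8 T cells (bottom), with exact Poisson 95% intervals that cover counting error only. Bcl2l11 is at 33.2 CPM in Xcr1 or Clec9a dendritic cells against 163.2 in Cd209a cells, while Pmaip1 stays between 203.1 and 249.6 CPM.

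In neutrophils the high Bcl2l11 was in both states examined. It was at 421.0 CPM (393.4 to 450.1) in 710 cells with Retnlg, a gene of circulating neutrophils, and at 489.4 (442.9 to 539.6) in 366 cells with Ccl3 and no Retnlg, and Retnlg cells were the higher in 2 of 5 libraries. Only 17 CD4 T cells had a Foxp3 UMI, so regulatory T cells were not described.

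Variation between libraries was examined in macrophages, the class with the most UMIs (554106193). The highest library was 2.43-fold the lowest for Bcl2l11 and 3.24-fold for Pmaip1, against a median of 1.67-fold over the 5350 genes with at least 20 CPM there. A ratio as large was found in 11.9% of these genes for Bcl2l11 and 4.58% for Pmaip1. Bax at 1.71-fold, Bak1 at 1.60-fold and Bad at 1.56-fold were near the median gene. Bcl2l11 was highest in libraries 6 and 5, with 199.1 and 185.6 CPM, and Pmaip1 in libraries 5 and 6, with 86.3 and 56.7 CPM, while Bax was lowest in library 6 with 177.9. Libraries 5 and 6 had the lowest median UMI counts per cell of the 12, 3974 and 2291, and the part of depth or of treatment in this was not tested.

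The genes with the most similar pattern over 70 pairs of class and library, by Pearson's r of log2(CPM + 1), were Chka (0.79), Ppp1r3b (0.77) and 1700017B05Rik (0.77) for Bcl2l11, all highest in neutrophils. For Pmaip1 they were Jak2, Slc25a20 and Cldn1 (each 0.77), all highest in dendritic cells. For Bad they were Pea15a (0.83), Chmp2b (0.82) and Cltb (0.81), for Bax Eif4a1 (0.78), Psmd2 (0.72) and Clta (0.72), and for Bak1 Cxcl16 (0.75) and Sh3pxd2b (0.75). Bid (at most 0.56, with Gclc), Bbc3 (0.66, with Golph3l) and Bmf (0.68, with Nrg1) had weaker matches, and their counts are sparse. Pairs of 1 library share its preparation and depth, so these values describe the patterns and are not tests.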

How the data were processed

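The authors enriched CD45+ cells, prepared 10x Genomics 3 prime v3 libraries and deposited 1 matrix of UMI counts, not normalized, for all libraries. Per the labels the build is mm10 and the tools are Cell Ranger 2.1.1 and Seurat, while the matrix header names Cell Ranger 3.0.2. The other deposited files list genes and barcodes. The filter followed the study's methods: over 200 and under 5000 genes in a cell, and no more than 10% of UMIs mitochondrial. It kept fewer cells than the study reports after its own filter, and the reason was not examined. Doublets were not removed, but 9 cells that passed 2 gates were left out, and removal of cells over 2 times the median UMIs was an alternative. Classes were gated on UMIs: for example, CD8 T cells had at least 2 UMIs of Cd3d, Cd3e and Cd3g, at least 1 of Cd8a or Cd8b1, and none of Cd4, Adgre1, Csf1r, B cell or neutrophil genes, and macrophages had at least 2 of Adgre1 and Csf1r and at least 0.1% of their UMIs on C1q genes. UMIs were summed by class and library and scaled to CPM.

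A gene was called in a class where its median CPM was at least 2-fold above or below the median of the other 7 classes, with at least 5 CPM in some class. After a check on simulated data, calls were limited to the 6 classes with at least 9 libraries and to genes with at least 20 UMIs expected in the class. Median log2 differences over genes used log2(CPM + 1). Intervals are exact Poisson or Clopper-Pearson at 95% and cover counting error only. The named genes are the members, the 3 genes most like each in pattern, and the genes of the pathway list that were called, some of which are not reported here. The members and lists were chosen with earlier results of these data known. EZH2i was to be compared with vehicle only if a label or file tied libraries to mice, and none used here did. The study's methods give cell totals for each treatment group, but groups were not inferred from the order or size of libraries. Gene positions are those of GENCODE M21. Figures were drawn with matplotlib 3.10.9, and values computed with pandas 2.3.3, scipy 1.17.1 and numpy 2.4.6 in Python 3.11.15.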

Additional observations from a re-analysis of the deposited data

How the results depend on the processing

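Of the results for the 8 genes, the class with the highest level stayed dendritic cells for Pmaip1 under all 13 other settings that gave a value, and neutrophils for Bcl2l11 under 11 of 13 (NK cells with at least 50 cells per library and over libraries 1 to 6). For the other genes it was the same class in 11 of 13 settings for Bad, 12 of 13 for Bax, 9 of 13 for Bak1, 8 of 12 for Bid, 8 of 11 for Bmf and 5 of 12 for Bbc3. The values that follow are log2 differences between that class and the median of the other classes. For Bcl2l11, 1.90 became 1.53 with libraries pooled, 1.57 as a mean over cells, 1.63 without cells over 2 times the median UMIs, 1.39 when thinned to 500 UMIs, and 1.62 with at least 5 cells per library. For Bid, 1.03 became 1.89 with at least 50 cells, 2.11 as a mean over cells, 2.01 without the large cells, and -0.37 with at least 5 cells, where NK cells lay below the median of the other classes. Monocytes were highest for Bid with at least 10 or 5 cells and when thinned to 500 or 1000 UMIs. For Bad, 1.01 became 1.26 without the large cells and 1.34 when thinned. Bad fell under 2-fold with gates doubled, a mitochondrial limit of 5%, libraries pooled, libraries 7 to 12 only and cells thinned to 1000 UMIs (0.85 to 1.00). For Bbc3, 0.58 ranged from 0.22 to 1.21. For Pmaip1, 2.15 became 1.64 with gates doubled. For Bmf, 1.49 became 2.30 with gates doubled (B cells then being highest), 0.87 pooled, 2.103 as a mean over cells, 3.55 with at least 10 cells and 3.76 with at least 5. For Bax, 0.34 became 0.60 as a mean over cells, 0.60 with libraries 7 to 12 only and 0.62 when thinned. For Bak1, 0.93 ranged from 0.75 to 1.27 and passed 2-fold without a mitochondrial limit, with at least 50, 10 or 5 cells, pooled, as a mean over cells and thinned to 1000 UMIs. The settings of at least 10 and 5 cells were chosen after seeing the data, and the cause of these changes was not tested. Leaving out each library in turn gave ranges of 1.86 to 1.93 for Bcl2l11 (NK cells being highest without library 7), 0.82 to 1.46 for Bid, 0.95 to 1.14 for Bad (monocytes highest without library 2 or 7), 0.24 to 0.73 for Bbc3 (CD4 T cells highest without library 3 and NK cells without library 5), 2.098 to 2.28 for Pmaip1, 1.13 to 1.52 for Bmf, 0.31 to 0.40 for Bax and 0.92 to 1.03 for Bak1. No value was obtained for Bid with gates doubled, for Bbc3 and Bmf thinned to 500 UMIs, or for Bmf thinned to 1000 UMIs. No paired analysis was possible because no library is tied to a labelled sample and its replicate number, and no test was run. Depth limits Bid, Bbc3 and Bmf in the small classes, and NK and B cells rest on 2 and 3 libraries.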
